A study of Mus musculus with 3 samples.

Results

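The genes of potassium channel subunits were examined in 3 RNA libraries of adipose stem and progenitor cells, the fibroblast-like stromal cells from which fat cells arise. Members were all genes of the deposited count table whose mouse symbol has the channel root Kcn followed by letters and a final number, and 92 of 27179 genes met this rule, 77 of them pore-forming and 15 auxiliary. The 77 counted as pore-forming include 10 genes of silent subunits, described below. The cells came from the epididymal fat of 3 untreated wild-type male C57B6 mice aged 12 weeks. They were sorted alive from the collagenase-released stromal cells as CD45-, CD31- and Ter119- and as positive for CD140a, Sca1 and PDPN. All libraries belong to 1 group, so the comparisons are between genes within a library and between libraries. Nothing in the labels ties a library to a single mouse, and differences between libraries may hold technical as well as animal variation.

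Potassium channels let potassium leave the cell down its gradient and so set the membrane potential, cell volume and the drive for calcium entry. The pore is built from subunits with the roots Kcna to Kcnd, Kcnh and Kcnq (opened by voltage), Kcnj (inward rectifiers, which pass current near rest), Kcnk (two-pore-domain leak channels) and Kcnma, Kcnn, Kcnt and Kcnu (mostly opened by intracellular calcium or sodium). Subunits with the roots Kcnf, Kcng, Kcns and Kcnv form no working channel alone and alter the gating of other voltage-gated subunits. The roots Kcnab, Kcne, Kcnip and Kcnmb mark auxiliary subunits that change the gating or surface level of a pore.

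The libraries held 25060096 to 32813373 counts. Levels are CPM (read counts scaled to library size, with TMM library sizes), given for libraries 1, 2 and 3 in that order or as mean ± SD over n = 3 libraries. A count of 0 allows up to 0.0945, 0.119 and 0.107 CPM in libraries 1, 2 and 3 (3 counts, counting error only, since amplified reads are not independent molecules). Levels of different genes are compared as CPM per kilobase of exon. All 3 sort-positive genes (Pdgfra, Ly6a and Pdpn) reached 1 CPM in every library. Several lists of markers of other cells were at or near 0: the summed 8 endothelial markers ranged from 0.189 to 0.357 CPM, the 8 lymphocyte markers from 0.063 to 0.396 CPM and the 9 macrophage markers from 0.179 to 3.96 CPM, while Ptprc, the CD45 gene, had 5.42, 15.8 and 7.68 CPM. Other lists were higher. The 12 mural and smooth muscle markers summed to 33.8 to 46.7 CPM, mostly Vtn (21.2, 17.9 and 19.6 CPM), Des and Tagln. The 8 Schwann and neuronal markers summed to 12.4 to 18.8 CPM, mostly Mbp, S100b and Tubb3 with Sox10 at 0 counts. The 5 mesothelial markers summed to 2.54 to 20.6 CPM, nearly all of it Nkain4. The part of such cells in the members' values was not tested. In pooled RNA, fewer cells carrying a transcript and less of it per cell cannot be told apart.

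Few potassium channel genes were detected in these progenitors, and those that were stood at low to moderate levels. A gene counts as detected where all 3 libraries reach 1 CPM, and 9 of 92 members (9.78%) met it, among them Kcns3, Kcnt2, Kcnk5, Kcnk6, Kcnip3, Kcnk2, Kcnn1 and Kcna2. The same rule was met by 35.0% of all genes and by 43.7% of protein-coding genes. Another 2 members (2.17%, against 5.03% of all and 5.61% of protein-coding genes) reached 1 CPM in 2 libraries and 9 (9.78%, against 6.24% and 6.29%) in 1 library, leaving 72 (78.3%, against 53.7% and 44.4%) below 1 CPM in all 3. The median member averaged 0.0329 CPM, against 1.89 CPM for protein-coding genes and 0.108 CPM for all genes. Of the 92 members, 0 averaged 100 CPM or more, a level reached by 8.32% of protein-coding genes. In libraries 1, 2 and 3 the members together took 1.30, 1.23 and 1.08 of every 10000 counts.

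**Figure D1:**
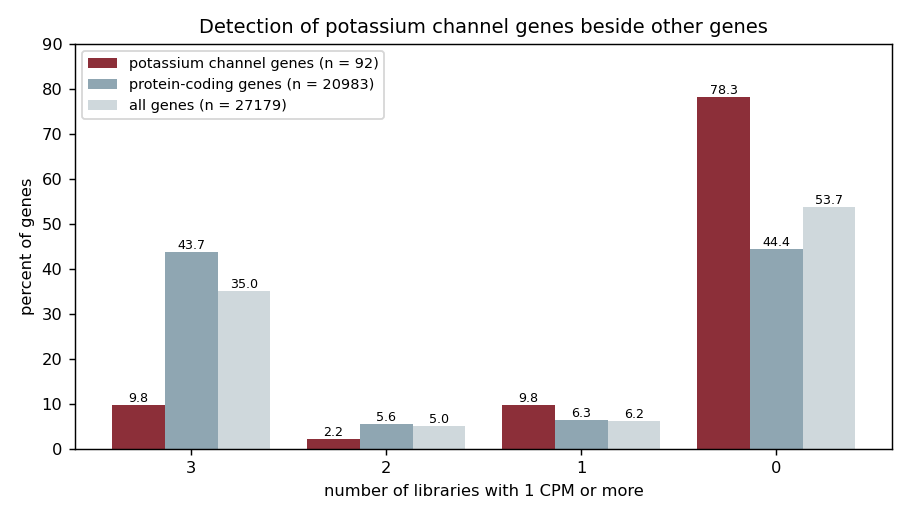
Percent of genes (vertical axis) at 1 CPM or more in 3, 2, 1 or 0 of the libraries (horizontal axis), for the 92 potassium channel genes, 20983 protein-coding genes and all 27179 genes. Of the channel genes, 78.3% fell in the group with no library at 1 CPM, against 44.4% of protein-coding genes.

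Of the 14 two-pore-domain genes 3 were detected, against 9 of 92 members and 35.0% of all genes. The levels of these 3 were the most even between libraries among the 9 detected members. Kcnk5 encodes the TASK-2 leak channel, which alkaline pH opens, and Kcnk6 encodes TWIK-2, a weakly rectifying channel found in part on endosomes and lysosomes. Kcnk5 (chromosome 14, 20140057 to 20181782) stood at 10.1, 15.6 and 14.5 CPM, 13.4 ± 2.90 on average. Kcnk6 (chromosome 7, 29221928 to 29232522) stood at 13.5, 11.9 and 14.5 CPM, 13.3 ± 1.31 on average. Their library values overlapped, per kilobase of exon too, at 3.93 ± 0.853 for Kcnk5 and 3.21 ± 0.316 for Kcnk6. Kcnk2 encodes TREK-1, a leak channel opened by membrane stretch and polyunsaturated fatty acids. Kcnk2 (chromosome 1, 189207930 to 189402782) stood at 6.21, 3.76 and 6.68 CPM, and at 1.12 ± 0.316 CPM per kilobase of exon it lay wholly below Kcnk5 and Kcnk6. Of its exon bases, 12.2% are shared with an antisense transcript, whose reads could not be separated without strand. Together the Kcnk genes summed to 8.94, 8.32 and 9.20 CPM per kilobase of exon, which was 31.0%, 30.2% and 47.8% of the level of all pore-forming members. That level counts the silent subunit genes, which summed to 11.9, 7.47 and 4.22 in libraries 1, 2 and 3. In library 1, 1.46 of the Kcnk sum came from Kcnk13, which was not detected.

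The other 11 Kcnk genes were below 1 CPM in at least 2 libraries. Kcnk13, a halothane-inhibited leak channel gene, had 144, 3 and 0 counts (4.54, 0.119 and 0 CPM), so it was high in library 1 alone. Kcnk3, the TASK-1 gene, had 4 counts over the 3 libraries, while Kcnk10 had 6, Kcnk18 had 3, Kcnk7 had 2, and Kcnk9, Kcnk12 and Kcnk15 had 1 each. Kcnk1, Kcnk4 and Kcnk16 had 0 counts in every library. Kcnk16 lies 79592 bases from Kcnk5 on chromosome 14, where Kcnk5 had 1118 counts in all.

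**Figure D2:**
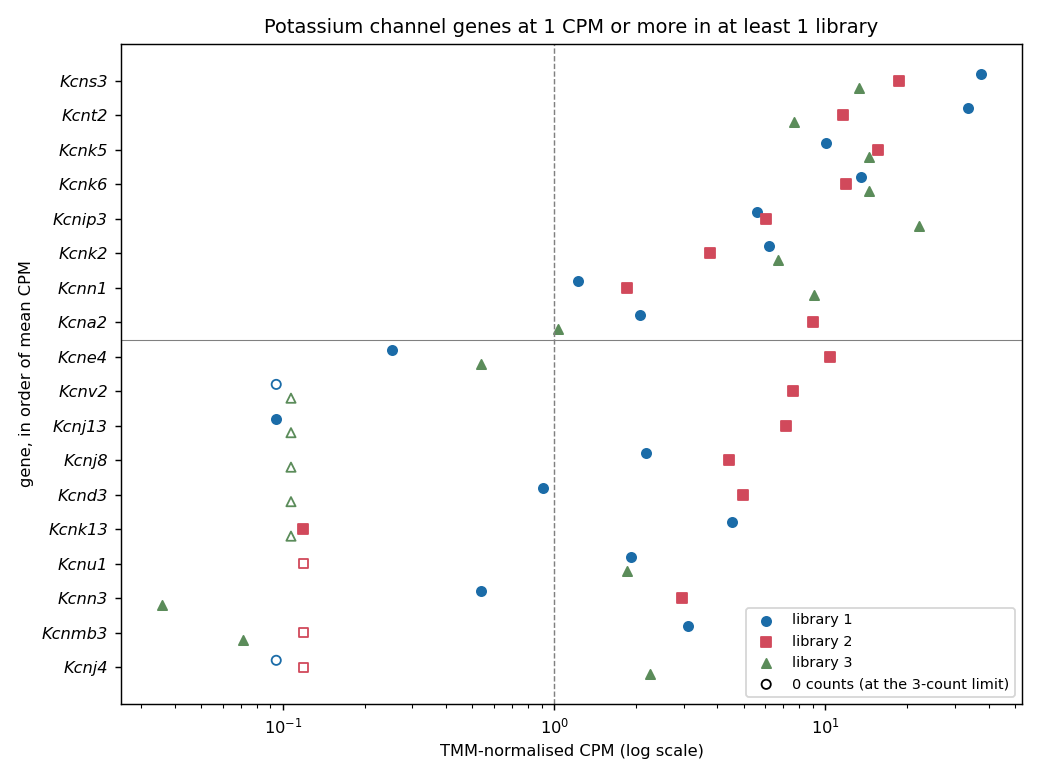
CPM on a log scale (horizontal axis) of 18 of the 20 members that reached 1 CPM in at least 1 library (vertical axis, in order of mean CPM), with 1 point per library. Open points mark 0 counts, drawn at the limit that 3 counts set; the dashed line is 1 CPM, and the 8 genes above the solid line reached it in every library.

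Kcns3, the gene of a silent subunit that works only together with other voltage-gated subunits, had the highest mean level of the 92 members. By CPM, Kcnip3, Kcnk6 and Kcnk5 stood above it in library 3. Kcns3 (chromosome 12, 11090202 to 11151168) stood at 37.6, 18.7 and 13.3 CPM, 23.2 ± 12.8 on average, and at 7.33 ± 4.04 CPM per kilobase of exon. Its lowest library lay above the highest library of Kcnk6, Kcnk2, Kcnn1 and Kcna2 per kilobase of exon, while its range overlapped those of Kcnk5, Kcnip3 and Kcnt2. Of the remaining silent subunit genes, Kcns1, Kcns2 and Kcnv1 had 0 counts, and Kcnf1 and the 4 Kcng genes had 1 to 5 counts each. Kcnv2, known for its role in photoreceptors, had 0, 191 and 0 counts, which is 7.57 CPM in library 2 and nothing in the other two.

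The genes of channels opened by voltage were mostly undetected, as were the members as a whole. Of these genes 2 of 30 were detected, among them Kcna2, against 9 of 92 members and 35.0% of all genes. Kcna2, the Kv1.2 gene (chromosome 3, 107090883 to 107115005), stood at 2.08, 9.04 and 1.04 CPM and so passed the threshold narrowly in library 3, with 29 counts. Its mean of 4.05 CPM was 1.56 CPM without library 2. On either side of it, Kcna3 (52753 bases away) had 0 counts and Kcna10 (68137 bases away) had 1 count. Kcnd3, the gene of the transient current channel Kv4.3, had 0.914, 4.95 and 0 CPM, and Kcnd1 and Kcnd2 had 2 and 1 counts. Kcnq5, a Kv7 gene, had 0, 4 and 19 counts, and Kcnb2 had 6 counts in all. The 4 Kcnc and 8 Kcnh genes had 13 counts or fewer each.

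Among channels opened by intracellular ions, the sodium-activated channel gene Kcnt2 and the small-conductance channel gene Kcnn1 were detected. Kcnt2 (chromosome 1, 140245657 to 140614045) stood at 33.7, 11.6 and 7.64 CPM, and its mean of 17.6 CPM was 9.61 CPM without library 1. Kcnn1 (chromosome 8, 70843158 to 70865691) stood at 1.23, 1.86 and 9.11 CPM, and its mean of 4.07 CPM was 1.55 CPM without library 3. These genes were thus highest in different libraries. Kcnn3, another small-conductance channel gene, had 0.536, 2.97 and 0.0357 CPM, and Kcnn4, the intermediate-conductance channel gene, had 3 counts in all. Kcnma1, the pore of the large-conductance BK channel, had 3, 5 and 6 counts, and Kcnu1, its sperm-specific relative, had 61, 0 and 52 counts. The partners of BK were low as well: Kcnmb1 had 0 counts, Kcnmb2 and Kcnmb4 had 3 and 1, and 0 of 4 genes of its gamma subunits were detected, with 2 counts or fewer each. Kcnmb3, another BK beta subunit gene, had 99, 0 and 2 counts.

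No inward rectifier gene was detected, out of 15 measured, against 9 of 92 members and 35.0% of all genes. Kcnj8 encodes the pore of the ATP-sensitive channel of vascular smooth muscle, and it had 69, 111 and 0 counts (2.17, 4.40 and 0 CPM), so it was present in libraries 1 and 2 and not found in library 3. Its partner, the sulfonylurea receptor gene Abcc9, lies 16247 bases away on chromosome 6 and was detected at 12.9, 85.4 and 16.6 CPM, highest in the same library. The Abcc9 mean of 38.3 CPM was 14.7 CPM without library 2. The other pair of ATP-sensitive channel genes, Kcnj11 and Abcc8, had 1 and 5 counts in all. Both Kcnj8 and Abcc9 also mark mural cells, and 3 of 12 other mural and smooth muscle markers were detected (Vtn, Des and Tagln). Those 12 markers summed to 36.1, 33.8 and 46.7 CPM, with Rgs5 and Higd1b at 0 counts in every library, and their part in the Kcnj8 and Abcc9 values was not tested. Kcnj2, the gene of the classical inward rectifier Kir2.1, had 0 counts in every library. Kcnj4 had 63 counts in library 3 and 0 in the others. Kcnj13 had 3, 180 and 0 counts, but it lies inside Gigyf2 on the opposite strand, with 49.1% of its exon bases shared, so without strand its reads and those of Gigyf2 (45.4, 55.2 and 10.5 CPM) cannot be told apart. The class sum of 0.978, 7.36 and 1.13 CPM per kilobase of exon rested on library 2, and its mean of 3.16 was 1.05 without it. Of the library 2 sum, 5.62 came from Kcnj13, so the part of Gigyf2 reads in that sum cannot be told.

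**Figure D3:**
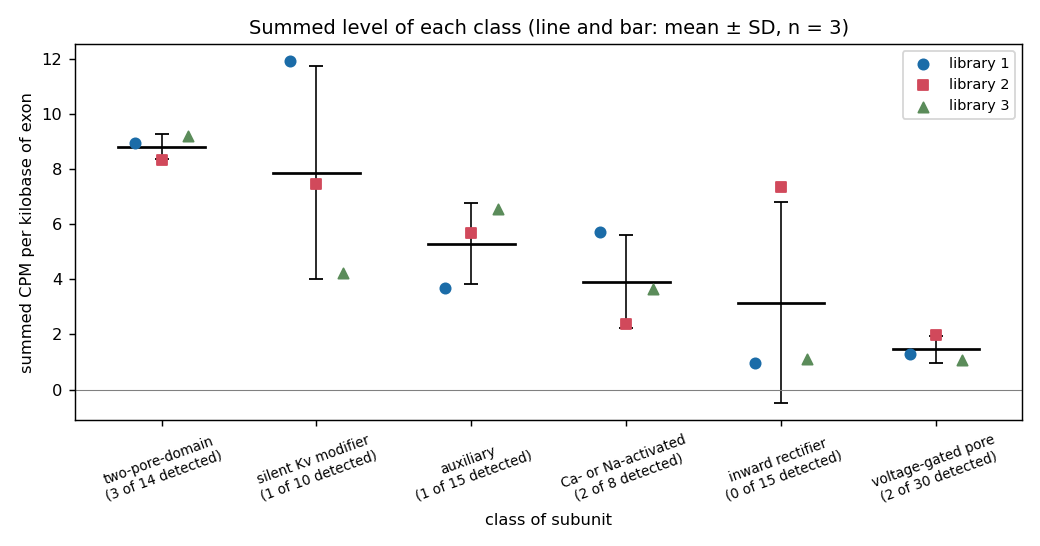
Summed CPM per kilobase of exon (vertical axis) of each class of subunit (horizontal axis, with detected and measured members), 1 point per library, with the mean and SD of n = 3. The two-pore-domain sum stayed between 8.32 and 9.20, while the silent Kv sum ranged from 4.22 to 11.9 and the inward rectifier sum from 0.978 to 7.36. Kcnk13, high in library 1 alone, gave 1.46 of the library 1 two-pore-domain sum. Kcnj13, which overlaps Gigyf2, gave 5.62 of the library 2 inward rectifier sum.

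Of 15 auxiliary subunit genes, only Kcnip3 was detected, against 9 of 92 members and 35.0% of all genes. Kcnip3 encodes a calcium-binding protein, also called calsenilin or DREAM, known both as a subunit of Kcnd channels and as a repressor of transcription. Kcnip3 (chromosome 2, 127456498 to 127522094) stood at 5.58, 6.06 and 22.1 CPM, and its mean of 11.3 CPM was 5.82 CPM without library 3. Kcnd3, the Kcnd gene with the most counts, was at 0 in library 3, where Kcnip3 was highest. Kcnip1, Kcnip2 and Kcnip4 had 0 counts, and the other Kcnd partners Dpp6 and Dpp10 had 5 and 3 counts in all. Kcne4, a small membrane subunit that dampens several voltage-gated channels, had 0.252, 10.4 and 0.536 CPM, so 1 library carried it. Kcne1 and Kcne2 had 1 and 2 counts and Kcne3 had 0. Of the Kv beta genes, Kcnab3 had 13, 0 and 2 counts, Kcnab1 had 3 and Kcnab2 had 2 in all. Auxiliary genes held 11.3%, 17.1% and 25.4% of the summed level of all members in libraries 1, 2 and 3.

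Ranked per kilobase of exon, the 9 detected members ran from Kcns3 at the top to Kcna2 at the bottom, with Kcnk5, Kcnk6, Kcnip3, Kcnt2, Kcnk2 and Kcnn1 in that order among those between, and the lowest stood at 0.340 ± 0.365 CPM per kilobase. All 8 pairs of neighbours among the 9 had overlapping library ranges, so the order holds only between some members further apart. Kcns3, for one, overlapped Kcnip3 and Kcnt2 as well as its neighbour Kcnk5. Kcns3, Kcnk5 and Kcnk6, the 3 highest by mean level, together held 55.6%, 40.2% and 46.3% of the summed level of the 92 members. They were not the 3 highest within any library. Kcnt2 (4.88 CPM per kilobase) lay above Kcnk5 and Kcnk6 in library 1, and Kcnj13 (5.62) did so in library 2. In library 3, Kcnip3 (6.24) lay above all 3. Which members ranked 2nd and 3rd depended on the library set: Kcnip3 entered the top 3 without library 1 or library 2, and Kcnt2 without library 3. Kcns3 kept the 1st rank in each of these sets. Within library 3 alone it did not, and both Kcnip3 and Kcnk5 lay above it there.

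The spread between libraries differed among the detected members. The coefficient of variation (SD as a percent of the mean CPM) was 9.85% for Kcnk6, 21.7% for Kcnk5 and 28.2% for Kcnk2, and 55.0% to 108% for the other 6. The median over 3595 detected genes in the same range of mean CPM was 49.0%. Of those genes, 2.84% had a lower coefficient than Kcnk6, 12.3% a lower one than Kcnk5 and 19.8% a lower one than Kcnk2, whereas 96.6% had a lower one than Kcnn1. These are descriptions over 3 libraries, and the difference between the Kcnk genes and the others was not tested.

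**Figure D4:**
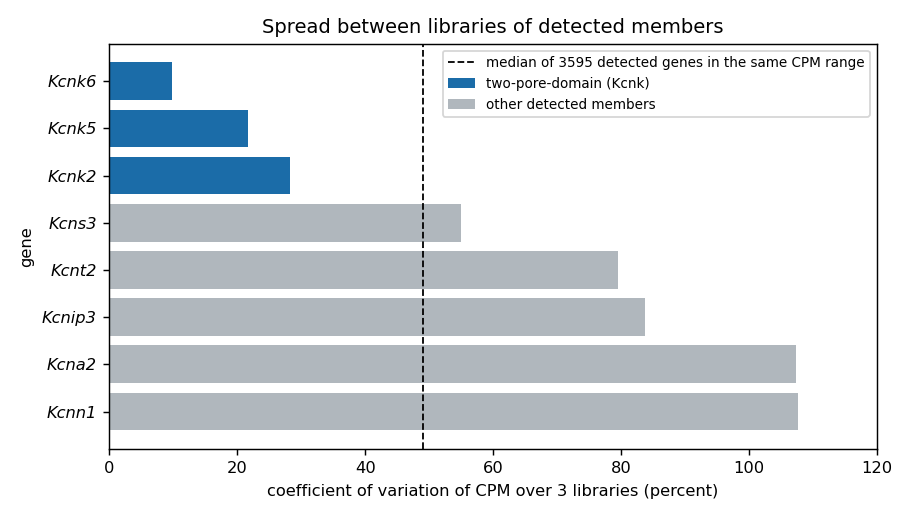
Coefficient of variation of CPM over 3 libraries (horizontal axis, percent) for 8 of the 9 detected members (vertical axis). The 3 two-pore-domain genes lie between 9.85% and 28.2%, left of the dashed median of 49.0%, and the other 5 drawn lie right of it.

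Differences between libraries went beyond counting error for the members that could be tested, as they did for nearly all genes. With edgeR's Poisson fit, 22 of 22 members with 10 counts or more in at least 1 library were called at a Benjamini-Hochberg adjusted p below 0.05, against 97.0% of 13289 genes, so the members' share is near the background. The evenest member, Kcnk6, had an adjusted p of 0.033 in that edgeR fit. The call rests on the libraries used: without library 2, 14 of 19 members were called, against 87.7% of 12778 genes in the same fit, with Kcnk6 and Kcnk2 among those no longer called. When genes of like level set the spread (edgeR's negative binomial fit with trended dispersion), 0 of 22 members were called, against 0.564% of genes, and 1 member had an unadjusted p below 0.05. In simulated data this fit missed many genes that were raised in 1 library, so a count of 0 does not show that the members were even. DESeq2's fitted dispersions also gave 0, with 2 members at an unadjusted p below 0.05.

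The 9 members at 1 CPM or more in a single library included Kcne4, Kcnv2, Kcnj13, Kcnd3, Kcnk13, Kcnn3, Kcnmb3 and Kcnj4. Library 2 carried 6 of them, library 1 carried Kcnk13 and Kcnmb3, and library 3 carried Kcnj4. Over all 1696 genes found in a single library in this way, 31.0% were in library 2, 38.6% in library 1 and 30.4% in library 3. Library 2 also had the highest Ptprc value and the highest macrophage marker sum (1.26, 3.96 and 0.179 CPM), carried mostly by Csf1r (0.063, 2.18 and 0.143 CPM) and Cd68 (0.221, 1.70 and 0 CPM). Lyz2, C1qa, C1qb, C1qc and Adgre1 had 0 counts in library 2. The mature adipocyte marker sum was highest there too (1.10, 6.62 and 2.11 CPM). In library 2 it was nearly all Retn (6.50 CPM), with Adipoq and Cidec at 0 counts. Endothelial, lymphocyte and skeletal muscle sums were also highest in library 2, and the mural, Schwann and neuronal, and mesothelial sums were lowest there. The part of other cells in these values was not tested. The 18 members with 0 counts in every library (19.6%, against 26.4% of all and 19.0% of protein-coding genes) were Kcna3, Kcna4, Kcnc4, Kcne3, Kcnh7, Kcnip1, Kcnip2, Kcnip4, Kcnj2, Kcnj14, Kcnj15, Kcnk1, Kcnk4, Kcnk16, Kcnmb1, Kcns1, Kcns2 and Kcnv1. Another 50 members had 1 to 9 counts over the 3 libraries together, and the share of all genes in that range is not given here.

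Most detected members with a start-site sequence had at least 1 start rich in CG dinucleotides, as did most detected protein-coding genes. In the RefSeq windows of 300 bases (250 before to 50 after a start, GRCm38.p6), 7 of 9 detected members and 60 of 83 others had an entry. A start with an observed-to-expected CG ratio of 0.6 or more was present for 5 of the 7 detected members and 20 of the 60 others (33.3%), against 81.2% of detected protein-coding genes and 29.6% of undetected ones. When the ratio was averaged over all starts of a gene, the detected members with 0.6 or more were 3 of 7 (42.9%). The share was 76.1% for detected protein-coding genes, 26.8% for undetected ones and 30.0% for the other members. Kcnk2 and Kcnip3 have other starts with few CG dinucleotides that bring their means below 0.6. Windows of Kcns3, Kcnk5 and Kcnt2 are shown with each CG in capitals. Kcns3 had the highest mean level of the members, and Kcnk5 the highest of the two-pore-domain genes. Of the 7 detected members with an entry, Kcnt2 has the lowest ratio when each gene is taken at its highest start. The Kcns3 window shown is its start with the higher ratio, and its other start has a ratio of 0.543.
Kcns3, chr12:11150324-11150623, minus strand, ratio 0.782: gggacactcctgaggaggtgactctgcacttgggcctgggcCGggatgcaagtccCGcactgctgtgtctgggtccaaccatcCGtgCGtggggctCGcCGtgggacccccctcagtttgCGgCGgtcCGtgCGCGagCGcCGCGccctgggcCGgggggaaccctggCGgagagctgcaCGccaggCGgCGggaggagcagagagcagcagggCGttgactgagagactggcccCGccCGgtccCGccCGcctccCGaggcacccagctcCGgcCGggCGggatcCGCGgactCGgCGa
Kcnk5, chr14:20181733-20182032, minus strand, ratio 0.878: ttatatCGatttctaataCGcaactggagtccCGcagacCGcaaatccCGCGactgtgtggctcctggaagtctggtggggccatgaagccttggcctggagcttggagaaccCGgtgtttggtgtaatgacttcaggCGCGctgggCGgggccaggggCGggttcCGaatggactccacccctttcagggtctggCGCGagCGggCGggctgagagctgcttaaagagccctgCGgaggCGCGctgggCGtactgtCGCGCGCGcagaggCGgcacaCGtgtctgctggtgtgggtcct
Kcnt2, chr1:140245468-140245767, plus strand, ratio 0.409: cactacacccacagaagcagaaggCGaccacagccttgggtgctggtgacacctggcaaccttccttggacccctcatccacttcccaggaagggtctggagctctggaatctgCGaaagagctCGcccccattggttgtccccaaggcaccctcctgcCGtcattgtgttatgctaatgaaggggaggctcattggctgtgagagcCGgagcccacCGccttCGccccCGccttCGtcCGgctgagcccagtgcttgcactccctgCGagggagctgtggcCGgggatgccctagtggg
The Kcns3 window holds 32 CG dinucleotides, the Kcnk5 window 26 and the Kcnt2 window 12. No measure of promoter use was made, and the libraries do not show which start was used.

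Genes of the sodium-potassium pump and of other potassium transporters and channels outside the members were detected in part. Of 14 genes of the sodium-potassium pump, which builds the gradient that the channels use, 8 were detected, among them Atp1b1, Atp1b2, Atp1b3, Fxyd1, Fxyd5 and Fxyd6. Fxyd1, a pump regulator, stood at 647, 548 and 663 CPM, and Atp1b3, a beta subunit, at 213, 247 and 268 CPM. Per kilobase of exon Kcns3 averaged 7.33 ± 4.04, against 101 ± 11.7 for Atp1b3. Of 6 cotransporters that move potassium with chloride, 3 were detected, among them Slc12a4 (23.5, 40.1 and 20.9 CPM) and Slc12a2 (21.1, 2.14 and 18.3 CPM). All 3 potassium channels of internal membranes were detected: Tmem38b at 28.2, 13.9 and 35.9 CPM, Tmem175 of the lysosome at 13.8, 15.5 and 5.50 CPM, and Tmem38a at 7.97, 6.46 and 9.50 CPM. Of 4 hyperpolarisation-activated channel genes 0 were detected, with 4 counts or fewer each.

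Of 13 genes of calcium entry and release, the signal that opens Kcnn channels, 9 were detected: Piezo2, Orai1, Orai2, Orai3, Stim1, Stim2, Itpr1, Itpr2 and Itpr3. The inositol trisphosphate receptor gene Itpr1 stood at 86.6, 62.4 and 34.1 CPM, the store sensor Stim2 at 34.6, 40.8 and 55.4 CPM, the store-operated channel gene Orai3 at 27.5, 13.9 and 32.3 CPM and Itpr2 at 19.0, 18.7 and 18.9 CPM. Trpc1 had 4.54, 20.9 and 0.0357 CPM and Trpv4 0.0945, 2.42 and 1.36 CPM, each below 1 CPM in 1 library, and Trpc6 had 0 counts. These partner lists were short and chosen by hand, and they are given as counts beside the background of 35.0% of all genes.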

How the data were processed

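Per the file headers and values, the authors deposited raw counts: whole reads for each NCBI gene ID, with no normalization and 1 column per library, matched to the sample titles by number. Per the labels' protocols, RNA of sorted cells was amplified with a Clontech SMARTer kit for very small inputs. CASAVA 1.8.2, STAR 2.3.0 and mm10 are named in the submitters' processing notes. The counting tool, annotation and strandedness were not given in the sources used here. Symbols came from the RefSeq table of GRCm38.p6 (25275 of 27179 IDs matched), and the 1904 unmatched IDs held 0.293% to 0.345% of counts. Members and lists were chosen with earlier results of these data known.

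CPM used TMM library sizes (edgeR 4.0.16, R 4.3.3). Exon lengths were unions of GENCODE M21 exons, found for 92 of 92 members. Variation between libraries was tested by residual deviance with intercept-only edgeR fits (Poisson, or negative binomial with trended dispersion). The 13289 genes tested reached 10 counts in 1 library or more. Simulated data, drawn apart for the Poisson and the negative binomial fit, were tested too. The Poisson fit recovered nearly all genes raised in 1 library, and the negative binomial fit missed many. These recoveries cannot be compared, since they come from different simulated data. Few genes left unraised were called in the Poisson simulations, against 97.0% of genes in the real libraries. Those simulations thus lacked the spread of the real libraries and do not test the Poisson calls made on them. DESeq2 1.42.0 gave alternative size factors and dispersions. Summaries used Python 3.11.15, numpy 2.4.6 and pandas 2.3.3. Named were all detected members, those at 1 CPM or more in 1 or 2 libraries, those at 0 counts, the Kcnk genes, chosen ion channel genes of known interest and detected partner genes, and other members where a count needed them. The marker lists for Schwann and neuronal (3 of 8 detected), skeletal muscle (0 of 5), mesothelial (1 of 5), mature adipocyte (0 of 5) and progenitor stroma cells (5 of 5), and the sort-negative genes (1 of 2), were also counted. Some genes that the rule would name are in the counts and fits and are not reported here by name.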

Additional observations from a re-analysis of the deposited data

How the results depend on the processing

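The count of 9 detected members ranged from 9 to 10 when 1 library was left out, since Kcnu1 entered without library 2 and Kcnj8 without library 3. It was 9 at 0.5 CPM, with 10 counts as the threshold, with DESeq2 size factors and with unscaled totals, and 6 at 2 CPM. It fell to 5 at 5 CPM and to 5 at 1 CPM per kilobase of exon, and both settings kept Kcns3, Kcnt2, Kcnk5, Kcnk6 and Kcnip3. The share of all genes detected under these other settings is not given here, so a fall common to all genes cannot be told from one of the members. The share held by the 3 members of highest mean level was 47.4% on average, and 46.8% to 53.7% without 1 library. It was 63.0% over detected members alone, where the undetected members leave the sum. The Kcnk share of the pore-forming level was 36.3% on average (30.6% to 39.4% without 1 library), and the auxiliary share of all members was 17.9% (14.2% to 21.2%). Both moved by less than 1 SD under every alternative run. Members called beyond counting error numbered 18 of 19 without library 1, 14 of 19 without library 2 and 17 of 20 without library 3, against 22 of 22, while the share of all genes called was 86.8%, 87.7% and 86.7%, against 97.0%. The negative binomial fit called 5 members (Kcnj4, Kcnj13, Kcnk13, Kcnmb3 and Kcnv2) with a common dispersion for all genes, a setting under which 6.11% of genes were called, and 0 under the other alternatives. Members with 1 to 9 counts in all are too shallow to compare between libraries, and exon unions may misstate the length of the transcript present. No paired analysis was possible because the labels give 1 group.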
